A study of Homo sapiens with 27 samples.

Results

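Interferon-stimulated genes are the genes that cells switch on when an interferon binds its receptor. The set described here was drawn up by gene symbol and not by measured values, and it held 46 genes. Of these, 45 had at least 1 probe set that the platform annotation assigned to a single gene symbol, 77 probe sets in all, while STAT2 had none and was not analysed here. The whole array held 54613 probe sets for 19775 genes. A variation filter, which asked that 20% of the arrays or more lie 1.5-fold or further away from a probe set's median, left 19791 probe sets for 10021 genes, and among them were 70 probe sets of the interferon-stimulated genes, at least 1 for each of the 45. Each gene was read by its filtered probe set with the highest mean over the 27 arrays, and all counts below are of these 45 genes.

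Expression was measured on Affymetrix U133 Plus 2.0 arrays in 3 established human lines, PC-3 from a prostate cancer, SK-OV-3 from an ovarian adenocarcinoma and WM793B from a melanoma, each grown in glass plates under 3 conditions with 3 cultures per condition that the labels call biological replicas. Under cycling hypoxia, periods of 4 h or 12 h at 1% oxygen alternated with periods at 21% oxygen over 72 h. The authors' scheme ended with 4 h at 21% oxygen. An effect of the cycles therefore cannot be told apart from one of this last period. Under chronic hypoxia, cells stayed at 1% oxygen for 72 h. Control cells stayed at 21% oxygen for the same 72 h. The labels name no interferon, virus or nucleic acid given to any group. PC-3 cells grew in RPMI and SK-OV-3 cells in McCoy's medium, both with 10% serum, and WM793B cells in a Tu medium with 2% serum, insulin and calcium chloride, so that a difference between lines cannot be told apart from a difference between media. The comparisons below ask how each kind of hypoxia changed these genes within a line, whether the change differed between lines, and how the lines differed without hypoxia.

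Type I interferons act through a receptor of the subunits IFNAR1 and IFNAR2 and the kinases JAK1 and TYK2. The kinases activate STAT proteins, which join IRF9 and bind a sequence called the interferon-stimulated response element (ISRE) in the promoters of their targets. Interferon gamma acts through another receptor, and its targets carry the gamma-activated sequence (GAS). The proteins made from these genes sense viral RNA and DNA (RIGI, IFIH1, IFI16) or degrade or sequester viral RNA (the OAS and IFIT families). Others trap or block virions at membranes (BST2, the IFITM family) or restrict viruses inside the cell (MX1 and MX2). Still others attach the ubiquitin-like protein ISG15 to other proteins, or carry the signal on (IRF7, IRF9). Many tumour lines keep some of these genes active without added interferon.

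The promoter stretches below show the element that most of the set has in common. RefSeq windows of 300 bases (250 before to 50 after a start site, GRCh38.p14) were at hand for 36 of the 45 genes, 48 windows in all. They were searched on both strands for GAAA, any 2 bases and GAAA again, the core of the ISRE, and for TTCNNNGAA, the GAS, which reads the same on both strands. The ISRE core stood in the windows of 25 of the 36 genes (69.4%), against 1195 of 27305 genes (4.38%) in the whole table. The GAS stood in those of 10 (27.8%), against 2560 of 27305 (9.38%), and 6 genes had both motifs, which can overlap. At least 2 ISRE matches stood in 1 window of 14 genes. Neither motif was found in the windows of 7 genes. A match is a run of letters and not a shown binding site. GBP2, IFIT2, IFITM2, IRF7, MX2, OAS2, OASL, TRIM22 and USP18 had no window in the table. The stretches of 60 bases are upstream of the start site, 5′ to 3′ on the strand of the gene, with motif matches in capitals. The first 7 belong to genes with an ISRE match that are among those that lead the results. CMPK2, IFI35 and OAS1 also lead results, and their windows held no ISRE core. CMPK2 had neither motif, and IFI35 and OAS1 each had a GAS. ISG20 is the gene that goes against the rest in PC-3 cells, and IRF1 and IRF9 are the factors with a GAS and no ISRE core.
OAS3 (chr12:112938413-112938472, plus strand): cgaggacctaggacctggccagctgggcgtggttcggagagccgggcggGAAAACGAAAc
IFI6 (chr1:27672262-27672321, minus strand): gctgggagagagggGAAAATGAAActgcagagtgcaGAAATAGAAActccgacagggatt
IFI44 (chr1:78649725-78649784, plus strand): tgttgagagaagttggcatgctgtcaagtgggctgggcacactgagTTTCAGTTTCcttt
IFI44L (chr1:78620350-78620409, plus strand): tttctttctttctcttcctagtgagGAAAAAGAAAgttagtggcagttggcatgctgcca
IFIT1 (chr10:89392488-89392547, plus strand): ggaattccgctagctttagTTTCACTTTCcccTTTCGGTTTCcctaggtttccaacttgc
ISG15 (chr1:1013362-1013421, plus strand): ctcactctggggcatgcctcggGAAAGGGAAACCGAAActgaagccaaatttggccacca
BST2 (chr19:17405723-17405782, minus strand): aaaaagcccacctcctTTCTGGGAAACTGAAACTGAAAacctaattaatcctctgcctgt
ISG20 (chr15:88638922-88638981, plus strand): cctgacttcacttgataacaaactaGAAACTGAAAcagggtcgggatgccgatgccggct
IRF1 (chr5:132490864-132490923, minus strand): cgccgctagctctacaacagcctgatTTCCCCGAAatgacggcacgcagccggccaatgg
IRF9 (chr14:24161176-24161235, plus strand): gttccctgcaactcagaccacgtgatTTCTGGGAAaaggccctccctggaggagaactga
In the stretches of IFIT1, ISG15, IFI6 and BST2, 2 ISRE matches stood within 60 bases. They overlapped each other in ISG15 and BST2, and in BST2 also a GAS. The ISG20 stretch held 1 ISRE match. The windows of PARP9 and DTX3L, which lie back to back on chromosome 3, overlapped and shared a match.

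All values are log2 signals, on which a difference of 1 is 2-fold. The deposited values share a lowest value, the floor, on all arrays, and a group with all 3 arrays at or under 5 was taken as at the noise level. This cutoff was set here on the log2 scale and lies well above the floor of 2.28. A group at the noise level in this sense may still express the gene at a low level. Where 1 of the groups compared was at that level, the fold is given as a bound against 5, and where both were, no fold is given. A gene was counted as risen or fallen when limma's adjusted p, over all 19791 probe sets, was under 0.05 and the difference at least 2-fold, and only such changes are called rises or falls. Arrays of 1 group correlated at 0.9935 to 0.9975 across all probe sets. The number of arrays limits the precision. Of the lines' markers, 4 of 4 epithelial genes were above the noise level in the PC-3 and SK-OV-3 lines and 1 of 4 in WM793B cells. SOX10 and S100B were above the noise level in WM793B cells and not in the other lines, and MITF was above it in all 3 lines and highest in SK-OV-3 cells, while the pigment genes MLANA, PMEL and TYR were at the noise level in WM793B cells. The leukocyte genes CD3E, CD14, ITGAM and PTPRC were at the noise level in every group (0 of 4 above it), as were CLEC4C and LILRA4, which define plasmacytoid dendritic cells, the main blood source of interferon. TCF4, a factor of those cells that other cells also make, was above it in the PC-3 line (means of 7.10 under cycling, 6.88 under chronic hypoxia and 8.19 in control cells) and in WM793B cells. As a check of the hypoxia labels, ANKRD37, NDRG1, BNIP3 and VEGFA, targets of the hypoxia-inducible factors, rose under chronic hypoxia in all 3 lines. Under cycling hypoxia all but ANKRD37 (0.73) rose in PC-3 cells and all but VEGFA (0.35) in SK-OV-3 cells. In WM793B cells only BNIP3 rose under cycling hypoxia (2.36). ANKRD37 (-0.047), NDRG1 (0.53) and VEGFA (0.89) were not called there. In RNA from whole cultures, fewer cells making a transcript and less transcript per cell cannot be told apart.

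Most of the genes fell in PC-3 cells and rose in SK-OV-3 cells. Under chronic hypoxia 35 of 45 fell and 1 rose in PC-3 cells, while 30 rose and none fell in SK-OV-3 cells. In WM793B cells 9 fell and 1 rose. Cycling hypoxia gave fewer calls in each line, with 23 falls and 2 rises in PC-3 cells, 9 rises and 1 fall in SK-OV-3 cells and 2 falls in WM793B cells. Each comparison is described below with its share over all genes.

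**Figure D1:**
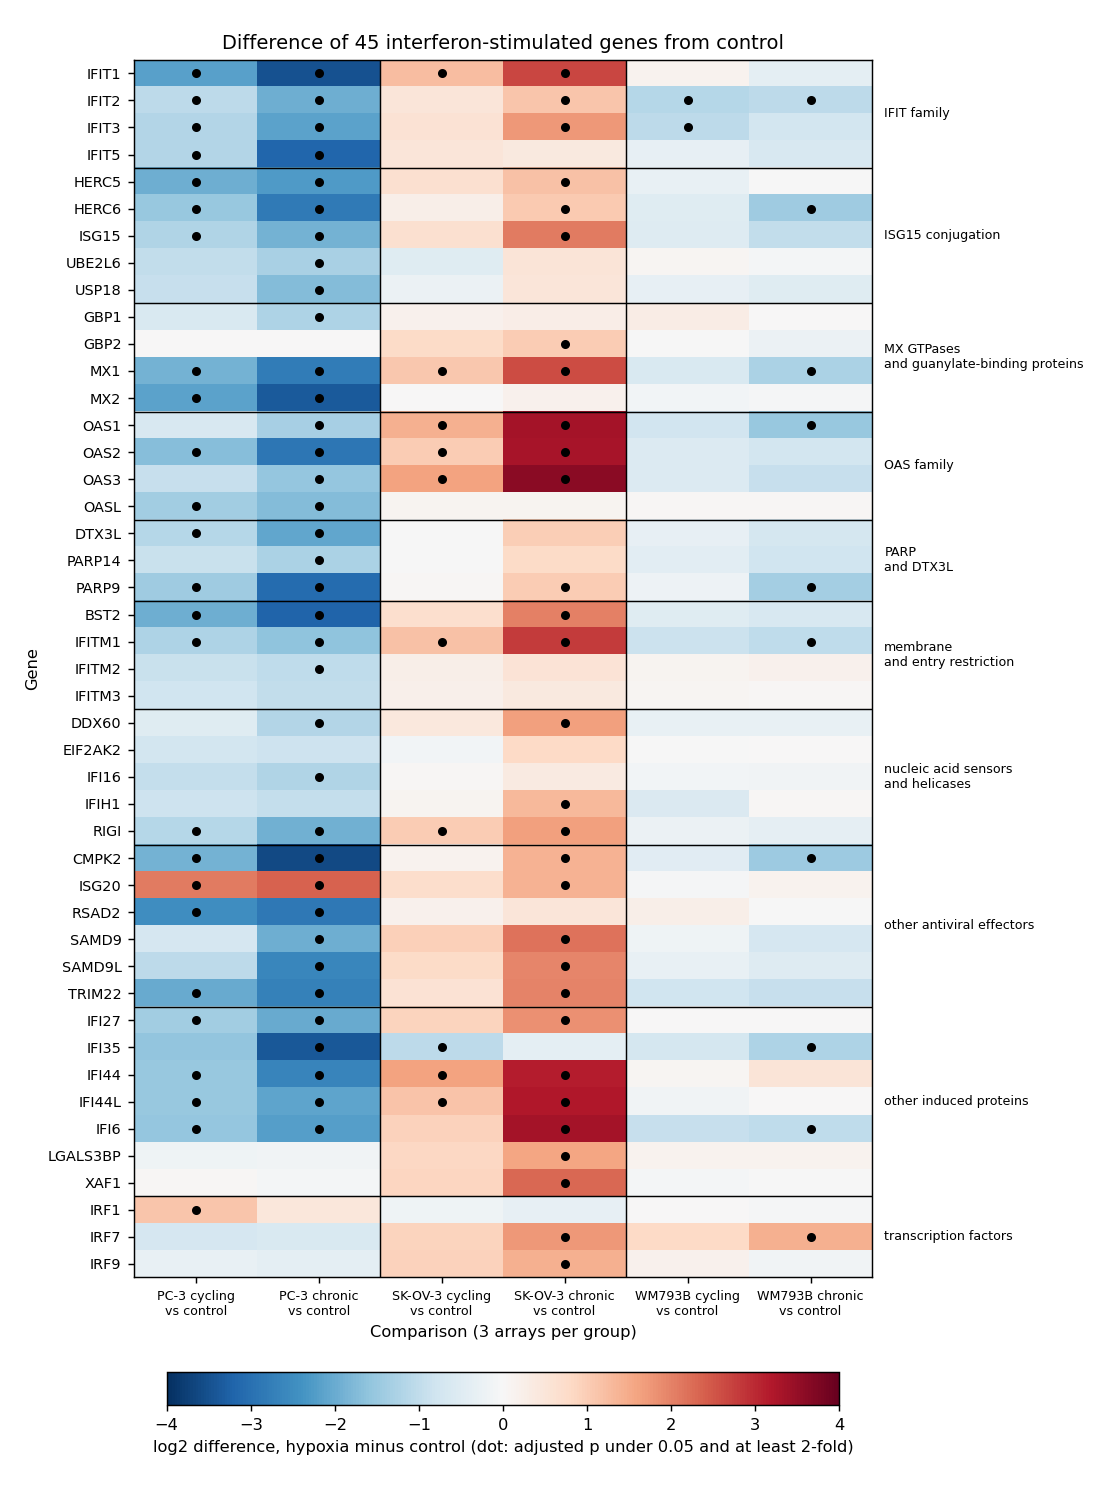
Differences of the 45 genes from control, as log2 values in colour (red higher, blue lower under hypoxia). Columns are cycling and chronic hypoxia in each cell line (3 arrays per group), rows are genes grouped by role, and a dot marks an adjusted p under 0.05 with at least 2-fold. The PC-3 columns are mostly blue with 35 falls under chronic hypoxia, the SK-OV-3 columns mostly red with 30 rises.

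In PC-3 cells under chronic hypoxia, 35 of the 45 genes fell, against 14.1% of all 10021 genes, and 1 rose, against 8.08% of all genes. The median difference was -1.92 over the 45 genes and -0.084 over all genes. All 4 members of the IFIT family fell, as did all 4 of the OAS family, all 5 genes of ISG15 conjugation and all 3 of the PARP and DTX3L group. The largest log2 difference was that of CMPK2, a mitochondrial nucleotide kinase. Its log2 signal was 5.99, 5.13 and 5.63 under chronic hypoxia, against 9.20, 9.43 and 8.93 in control cells (log2 difference -3.60, standard error 0.34, adjusted p = 7.98e-05), a fall of 12.2-fold. The groups lay more than 2 log2 units apart. IFIT1, which binds viral RNA without a methylated cap, read 7.52, 6.88 and 7.74 under chronic hypoxia, against 10.91, 11.00 and 10.72 in control cells (log2 difference -3.50, standard error 0.28, adjusted p = 3.32e-05). IFI35, a leucine zipper protein, read 5.09, 2.76 and 4.46 under chronic hypoxia, against 7.54, 7.50 and 7.45 in control cells (log2 difference -3.39, standard error 0.55, adjusted p = 0.0013). The chronic IFI35 arrays spread over more than 2 log2 units, with replicate 2 the lowest, and none overlapped the control arrays.

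For 9 of the 35 genes the chronic hypoxia arrays were all at the noise level, so that the falls are lower bounds. MX2, a GTPase that restricts viruses at the nuclear pore, read 2.40, 2.40 and 2.81 under chronic hypoxia, against 6.22, 5.88 and 5.59 in control cells, which makes it at least 1.86-fold lower (adjusted p = 1.86e-05). BST2, also called tetherin, which holds budding virions at the cell surface, read 4.02, 3.57 and 4.02 under chronic hypoxia, against 6.88, 7.26 and 7.05 in control cells, at least 4.18-fold lower (adjusted p = 5.81e-05). Both genes were thus at the noise level after 72 h at 1% oxygen and above it in PC-3 control cells. The bound was at least 5.23-fold for HERC6, a relative of the ISG15 ligase HERC5, at least 3.4-fold for SAMD9L, at least 2.71-fold for HERC5, at least 2.62-fold for RSAD2 (viperin, which makes a chain-terminating nucleotide) and at least 2.18-fold for OASL. For GBP1 and TRIM22 it was at least 1.85-fold and at least 1.66-fold.

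Among the other falls in PC-3 cells under chronic hypoxia, ISG15 itself read 11.39, 10.82 and 11.54, against 13.14, 13.17 and 13.14 in control cells (log2 difference -1.90, standard error 0.24, adjusted p = 0.00032). ISG15 thus stayed far above the noise level while it fell 3.73-fold. MX1, the cytoplasmic relative of MX2, differed by -2.78, OAS2 by -2.88, PARP9 by -3.09, IFIT5 by -3.16, IFI44 by -2.64 and IFI6 by -2.20 (log2, all with an adjusted p under 0.05). The sensors and helicases differed less, from -1.92 for RIGI, the RNA sensor RIG-I, to -0.84 for EIF2AK2, the kinase PKR (which did not reach 2-fold), and 3 of the 5 fell. Of the membrane group, IFITM1 and IFITM2 fell beside BST2, while IFITM3 differed by -0.99, just short of 2-fold. The IFITM genes are close copies of each other and their probe sets may cross-hybridize, so that their separate values are uncertain.

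ISG20, an RNA exonuclease, was the 1 gene that rose in PC-3 cells under chronic hypoxia. It read 10.05, 10.05 and 10.19 under chronic hypoxia, against 7.76, 7.80 and 7.66 in control cells (log2 difference 2.36, standard error 0.052, adjusted p = 3.46e-07), and 9.80, 9.79 and 9.84 under cycling hypoxia (log2 difference 2.07, standard error 0.052, adjusted p = 2.04e-06 against control). The hypoxic arrays lay about 2 log2 units above the control arrays with a spread of under 0.2 within each group. Its other filtered probe set gave 2.35 under chronic and 2.11 under cycling hypoxia. The ISRE match in the ISG20 stretch above is of the same letters, GAAACTGAAA, as the matches in that of BST2, which fell. The remaining genes that were not called were IRF1, IRF7, IRF9, IFIH1, IFITM3, EIF2AK2, GBP2, LGALS3BP and XAF1. XAF1 was at the noise level in every PC-3 group. The 2 probe sets of GBP2 differed, with 0.017 on the brighter one and -1.19 on the other.

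In PC-3 cells under cycling hypoxia, 23 of the 45 genes fell, against 3.74% of all genes, and 2 rose, against 4.09% of all genes, with a median difference of -1.13 over the 45 and -0.006 over all genes. RSAD2 read 4.22, 3.27 and 4.23 under cycling hypoxia, against 6.22, 7.30 and 5.65 in control cells, at least 2.62-fold lower (adjusted p = 0.00496). MX2 was likewise at the noise level under cycling hypoxia, with 4.17, 3.57 and 3.50, and at least 1.86-fold lower than in control cells (adjusted p = 0.000367). IFIT1 read 9.20, 8.41 and 8.56 under cycling hypoxia, against the control values given above (log2 difference -2.16, standard error 0.28, adjusted p = 0.000756). All 4 IFIT genes and 3 of the 5 ISG15 conjugation genes fell, while OAS1 and OAS3, which make the oligoadenylates that activate RNase L, had differences of -0.66 and -0.93 and were not called. The rises were those of ISG20 and of IRF1.

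The direct comparison of the 2 kinds of hypoxia in PC-3 cells found 11 of the 45 genes higher under cycling than under chronic hypoxia, against 3.27% of all genes, and none lower, against 1.32%. IFIT5, an RNA-binding protein of the IFIT family, read 6.65, 6.33 and 6.79 under cycling hypoxia, against 5.01, 4.23 and 4.59 under chronic hypoxia (log2 difference 1.99, standard error 0.21, adjusted p = 0.000529). For IFI35 the difference was 1.82 (standard error 0.55, adjusted p = 0.0377) and for CMPK2 1.71 (adjusted p = 0.00758). These genes thus lay nearer to control under cycling than under chronic hypoxia. The 11 included MX2, for which both groups were at the noise level. Without PC-3 cycling replicate 1, 6 genes were called, and IFI35 was not called without PC-3 chronic replicate 2 (1.14) or replicate 1 (2.31).

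In SK-OV-3 cells under chronic hypoxia, 30 of the 45 genes rose, against 9.99% of all genes, and none fell, against 6.35%. The median difference was 1.40 over the 45 genes and 0 over all genes. OAS3, OAS1 and OAS2 were among the 5 genes with the largest rises. OAS3 read 9.59, 8.94 and 9.10 under chronic hypoxia, against 6.11, 4.80 and 5.92 in control cells (log2 difference 3.60, standard error 0.36, adjusted p = 0.000248), a rise of 12.1-fold. OAS1 read 9.27, 9.22 and 9.31, against 6.36, 5.40 and 6.02 in control cells (log2 difference 3.34, standard error 0.24, adjusted p = 5.16e-05). OAS2 read 8.33, 8.29 and 8.51, against 4.90, 5.15 and 5.16 in control cells (log2 difference 3.31, standard error 0.088, adjusted p = 1.37e-06). For all 3 the lowest chronic array lay well above the highest control array, while the related OASL was at the noise level in every SK-OV-3 group.

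IFI6, an interferon-induced protein that delays cell death, read 10.22, 10.15 and 10.25 under chronic hypoxia, against 7.02, 6.15 and 7.43 in SK-OV-3 control cells (log2 difference 3.33, standard error 0.36, adjusted p = 0.000354). IFI44L read 6.87, 6.68 and 7.02 under chronic hypoxia, against 3.73, 3.19 and 4.04 (the noise level) in control cells, at least 3.62-fold higher (adjusted p = 3.83e-05). Its neighbour on chromosome 1, IFI44, differed by 3.14 (adjusted p = 0.000256). Among the other rises, IFITM1 had a log2 difference of 2.80, IFIT1 of 2.69, MX1 of 2.60, XAF1, a binding partner of XIAP, of 2.30, SAMD9 of 2.17, ISG15 of 2.07 and BST2 of 2.02. By role, 6 of the 7 other induced proteins rose, 5 of the 6 other antiviral effectors, 3 of the 4 OAS genes, 3 of the 4 IFIT genes, 3 of the 5 sensors and helicases, 3 of the 5 ISG15 conjugation genes and 1 of the 3 genes of the PARP and DTX3L group. The 15 genes that were not called included MX2, OASL and RSAD2, which were at the noise level in all SK-OV-3 groups.

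Under cycling hypoxia in SK-OV-3 cells, 9 genes rose, against 6.4% of all genes, and 1 fell, against 3.41%, with a median difference of 0.58 over the 45 and 0.0068 over all genes. IFI44 read 6.25, 5.87 and 6.47 under cycling hypoxia, against 4.58, 3.92 and 5.23 in control cells (log2 difference 1.62, standard error 0.32, adjusted p = 0.00809). OAS3 read 7.16, 6.96 and 7.51 under cycling hypoxia (log2 difference 1.60, standard error 0.36, adjusted p = 0.0146) and OAS1 read 7.31, 7.12 and 7.61 (log2 difference 1.42, standard error 0.24, adjusted p = 0.00421), against the control values above. In each of these 3 genes all cycling arrays were above all control arrays. The other rises were those of IFI44L (at the noise level in both groups), IFIT1, IFITM1, MX1, OAS2 and RIGI. IFI35 was the 1 gene that fell, with 7.88, 7.68 and 7.85 under cycling hypoxia, against 8.85, 8.68 and 9.07 in control cells (log2 difference -1.06, standard error 0.16, adjusted p = 0.00241). Without SK-OV-3 cycling replicate 3, or without SK-OV-3 control replicate 2, 6 genes were called in place of 10. The difference of OAS3 was 1.20 without control replicate 2 and 1.85 without control replicate 1, and neither was called.

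Set directly against chronic hypoxia, cycling hypoxia gave lower levels of 19 of the 45 genes in SK-OV-3 cells, against 3.76% of all genes, and higher levels of none, against 3.55%. The median difference was -0.94 over the 45 and 0 over all genes. IFI6 read 7.47, 7.55 and 8.39 under cycling hypoxia, against 10.22, 10.15 and 10.25 under chronic hypoxia (log2 difference -2.40, standard error 0.36, adjusted p = 0.00293). OAS2 read 6.07, 6.05 and 6.10 under cycling hypoxia, against 8.33, 8.29 and 8.51 (log2 difference -2.31, standard error 0.088, adjusted p = 2.01e-05). IFI44L was at the noise level under cycling hypoxia and at least 3.62-fold lower than under chronic hypoxia (adjusted p = 0.000687). In IFI6 and OAS2 every cycling array thus lay between the chronic and the control arrays.

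**Figure D2:**
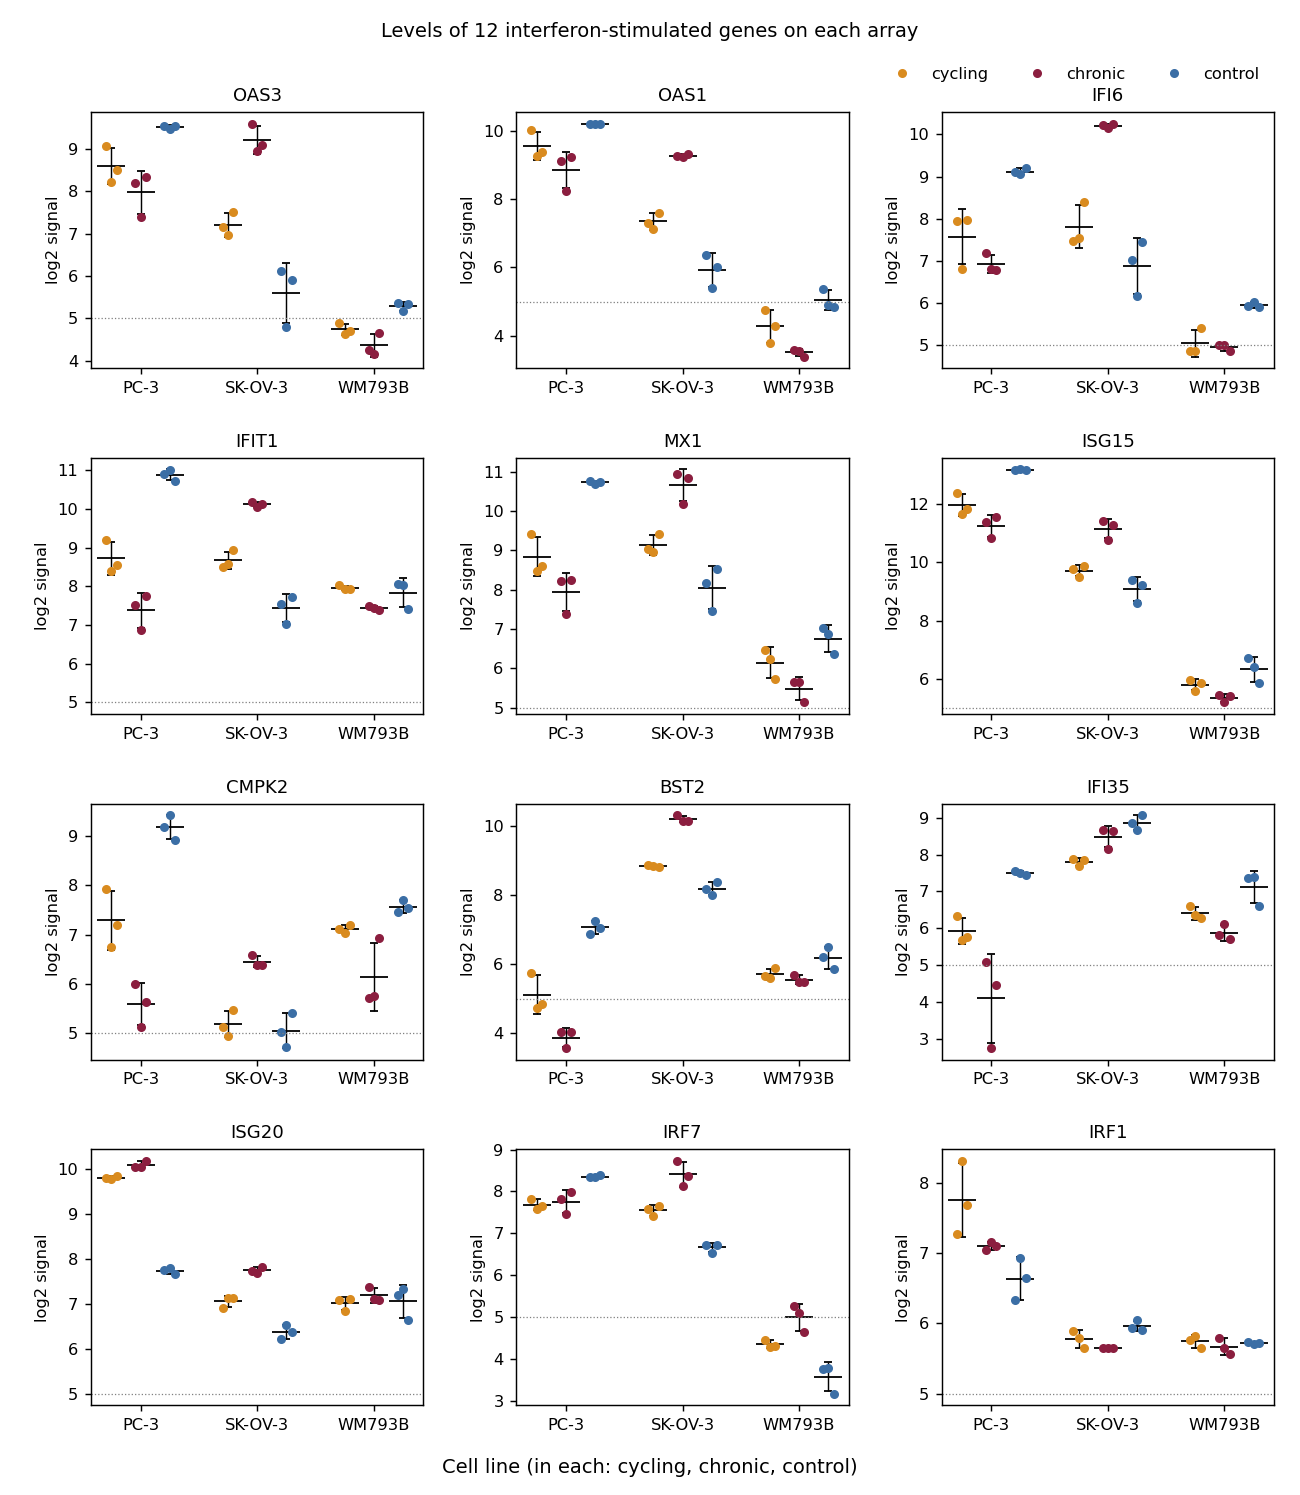
Log2 signals of 12 genes on each of the 27 arrays (points), with the mean and SD of each group (bar and whiskers, n = 3); the dotted line is the noise level of 5. In OAS3, OAS1, IFI6, IFIT1, MX1 and ISG15 chronic hypoxia lies below control in PC-3 and above it in SK-OV-3 cells, and ISG20 lies above control in both.

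WM793B cells had fewer differences. Under chronic hypoxia 9 of the 45 genes fell, against 7.62% of all genes, and 1 rose, against 4.66%, with a median difference of -0.35 over the 45 and -0.023 over all genes. OAS1 was at the noise level under chronic hypoxia, with 3.59, 3.56 and 3.39, against 5.38, 4.91 and 4.84 in control cells, at least 1.03-fold lower (adjusted p = 0.00295). CMPK2 read 5.71, 5.75 and 6.93 under chronic hypoxia, against 7.47, 7.71 and 7.54 in control cells (log2 difference -1.44, standard error 0.31, adjusted p = 0.00914). Replicate 3 of the chronic group lay more than 1 log2 unit above the other 2 in CMPK2, and all 3 were below the control arrays. HERC6 was at the noise level under chronic hypoxia and at least 1.54-fold lower (adjusted p = 0.00395). PARP9, which works in a complex with DTX3L, read 5.63, 5.67 and 4.92 under chronic hypoxia, against 7.02, 7.12 and 6.12 in control cells (log2 difference -1.35, standard error 0.32, adjusted p = 0.0142). PARP9 was not called without control replicate 3 (-1.66) or chronic replicate 3 (-1.11). The other falls were those of IFI35, IFIT2, IFITM1 and MX1, with differences of -1.28 for MX1 and -1.01 for IFITM1 at the ends, and of IFI6, at the noise level under chronic hypoxia and at least 1.93-fold lower.

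IRF7, the factor that drives interferon alpha genes, was the 1 gene that rose in WM793B cells. It read 5.27, 5.10 and 4.64 under chronic hypoxia, against 3.77, 3.79 and 3.18 in control cells (log2 difference 1.42, standard error 0.21, adjusted p = 0.00206). Its control arrays were at the noise level and the mean of the chronic arrays was just at it, so that no fold is given. Under cycling hypoxia 2 genes fell, IFIT2 and IFIT3, against 1.96% of all genes, and none rose, against 1.35%. IFIT3 read 7.16, 6.82 and 6.87 under cycling hypoxia, against 8.22, 8.11 and 7.64 in control cells (log2 difference -1.04, standard error 0.21, adjusted p = 0.0185). IFIT2 was at the noise level under cycling hypoxia and at least 1.96-fold lower (adjusted p = 0.0135). Without WM793B control replicate 1 neither was called, with differences of -0.94 for IFIT2 and -0.92 for IFIT3. Between cycling and chronic hypoxia limma called none of the 45 genes in WM793B cells, higher (1.23% of all genes) or lower (1.42%), while 11 had an unadjusted p under 0.05. IFI27, an interferon-induced mitochondrial protein, was at the deposited floor on all 9 WM793B arrays.

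The differences between the lines' responses were tested in 1 fit of the 27 arrays. For chronic hypoxia the response in SK-OV-3 cells was higher than that in PC-3 cells for 42 of the 45 genes, against 18.7% of all genes, and lower for none, against 9.38%, with a median difference of 3.45 over the 45 and 0.13 over all genes. OAS2 had a response of 3.31 in SK-OV-3 cells and of -2.88 in PC-3 cells (difference of the log2 differences 6.19, standard error 0.23, adjusted p = 6.45e-15). IFIT1 had 2.69 in SK-OV-3 and -3.50 in PC-3 cells, and IFI44 had 3.14 in SK-OV-3 and -2.64 in PC-3 cells. The exceptions were GBP2, IRF1 and ISG20. MX2, OASL and RSAD2, at the noise level in all SK-OV-3 groups, are counted among the 42 by their PC-3 values. Of the genes called within the lines, 23 both rose in SK-OV-3 and fell in PC-3 cells under chronic hypoxia. That is 76.7% of the 30 that rose in SK-OV-3 and 65.7% of the 35 that fell in PC-3 cells. Of all 45 genes 77.8% fell in PC-3 and 66.7% rose in SK-OV-3 cells, so these shares are near the set's own. The same overlap over all genes is not given here, and nothing more is read from it. The 7 that rose in SK-OV-3 cells and did not fall in PC-3 cells were GBP2, IFIH1, IRF7, IRF9, ISG20, LGALS3BP and XAF1. The 12 that fell in PC-3 cells and did not rise in SK-OV-3 cells were DTX3L, GBP1, IFI16, IFI35, IFIT5, IFITM2, MX2, OASL, PARP14, RSAD2, UBE2L6 and USP18.

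**Figure D3:**
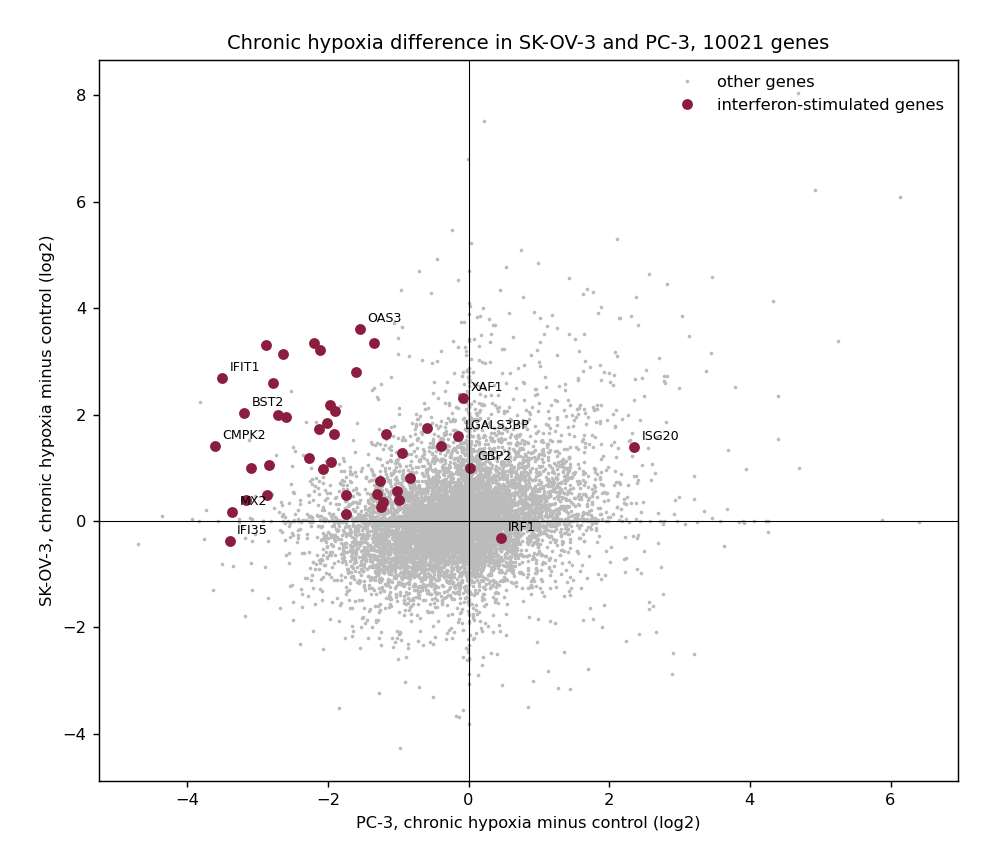
Log2 difference between chronic hypoxia and control for 10021 genes, in SK-OV-3 cells (vertical axis) and PC-3 cells (horizontal axis); each point is a gene, read by its brightest filtered probe set, and the interferon-stimulated genes are in dark red. Most of the 45 lie in the upper left, and the 23 called in both lines are among them; ISG20 lies in the upper right.

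The median response of WM793B cells to chronic hypoxia (-0.35) lay between those of SK-OV-3 (1.40) and PC-3 cells (-1.92). The WM793B response was higher than that of PC-3 cells for 30 genes, against 10.3% of all genes, and lower for 1, against 7.8%. The differences of the log2 differences included 3.31 for MX2, 3.14 for IFI44 and 3.10 for IFIT1, and ISG20 was the 1 lower, with -2.23. MX2 was at the noise level in all WM793B groups and in PC-3 cells under chronic hypoxia, so that the size of its value is not measured. Compared with SK-OV-3 cells, the response of WM793B cells was lower for 32 genes, against 15.5% of all genes, and higher for none, against 9.37%, with fitted values of -4.87 for OAS1, -4.52 for OAS3 and -4.34 for IFI6. All 3 of these genes were at the noise level in WM793B cells under chronic hypoxia, so that these sizes and their order are not measured. The 9 genes that fell in WM793B cells were all among the 35 that fell in PC-3 cells (25.7% of those), where 77.8% of the 45 fell.

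For cycling hypoxia the SK-OV-3 response was higher than the PC-3 response for 32 genes, against 9.46% of all genes, and lower for 2, against 6.08%. IFIT1 had 1.24 in SK-OV-3 and -2.16 in PC-3 cells (difference 3.40), and IFI44 and MX1 had differences of 3.12 and 2.98. The 2 lower ones were IRF1 and ISG20. The WM793B response was higher than the PC-3 response for 17 genes, against 3.43% of all genes, and lower for 2, against 4.58%, with 2.72 for RSAD2, 2.28 for IFIT1 and -2.12 for ISG20. RSAD2 was at the noise level in both WM793B groups and in PC-3 cells under cycling hypoxia, so that its value is no measured size. The WM793B response was lower than the SK-OV-3 response for 17 genes, against 9.69% of all genes, and higher for none, against 5.12%, with -2.19 for OAS1, -2.14 for OAS3 and -2.05 for IFITM1. OAS1, OAS3 and IFITM1 were at the noise level in WM793B cells under cycling hypoxia, so that these sizes and their order are not measured either. These tests share the control arrays with those for chronic hypoxia.

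Of the 3 transcription factors of the set, none was called in PC-3 cells under chronic hypoxia. IRF9 differed there by -0.40 under chronic hypoxia (adjusted p = 0.0258) and IRF7 by -0.60 (adjusted p = 0.00705), and neither reached 2-fold. IRF1, a factor that interferon gamma induces, read 7.27, 8.32 and 7.69 under cycling, 7.04, 7.16 and 7.10 under chronic hypoxia and 6.33, 6.94 and 6.64 in control cells. It rose under cycling hypoxia (log2 difference 1.12, standard error 0.27, adjusted p = 0.0122). Under chronic hypoxia its brighter probe set gave 0.46 and was not called, while the other gave 1.19 (adjusted p = 0.000144). In SK-OV-3 cells IRF9 read 9.47, 9.14 and 9.44 under chronic hypoxia, against 8.02, 7.68 and 8.12 in control cells (log2 difference 1.41, standard error 0.16, adjusted p = 0.000481), and IRF7 read 8.73, 8.13 and 8.36, against 6.73, 6.54 and 6.73 (log2 difference 1.74, standard error 0.15, adjusted p = 0.000133). Both rose there, while IRF1 differed by -0.32 and was not called. In WM793B cells under chronic hypoxia IRF1 differed by -0.052 and IRF9 by -0.15, and neither was called.

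Without hypoxia many of these genes were lower in the SK-OV-3 and WM793B lines than in PC-3 cells. In SK-OV-3 control cells 25 genes were lower than in PC-3 control cells, against 26.1% of all genes, and 6 were higher, against 24.4%. In WM793B control cells 25 were lower than in PC-3 cells, against 24%, and 5 were higher, against 24.3%. IFI44L averaged 3.65 ± 0.43 in SK-OV-3 control cells, at the noise level, and 8.91 ± 0.028 in PC-3 control cells (SD, n = 3 each), at least 15-fold lower in SK-OV-3 cells (adjusted p = 1.19e-15). OAS1 averaged 5.93 ± 0.49 in SK-OV-3 and 10.20 ± 0.0063 in PC-3 control cells, and OAS2 5.07 ± 0.15 in SK-OV-3 and 9.27 ± 0.074 in PC-3 control cells, log2 differences of -4.27 and -4.20. ISG15 averaged 6.34 ± 0.44 in WM793B and 13.15 ± 0.019 in PC-3 control cells (log2 difference -6.81, standard error 0.24, adjusted p = 1.65e-17). IFI27 and IFI44L were at the noise level in WM793B control cells and at least 28.5-fold and 15-fold lower there than in PC-3 cells. The OAS family was lower in both lines than in PC-3 cells, 4 of 4 genes each. Between WM793B and SK-OV-3 control cells 15 genes (33.3% of the 45) were lower in WM793B cells, against 25.9% of all genes. A further 7 (15.6%) were higher, against 28.3%. The share that was lower is thus near that over all genes, and the share that was higher is below it. IFI27 was at least 47.1-fold lower in WM793B cells and IRF7 at least 3.18-fold lower, while GBP2, a GTPase that interferon gamma induces strongly, was at least 19-fold higher. These comparisons are between lines grown in different media.

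**Figure D4:**
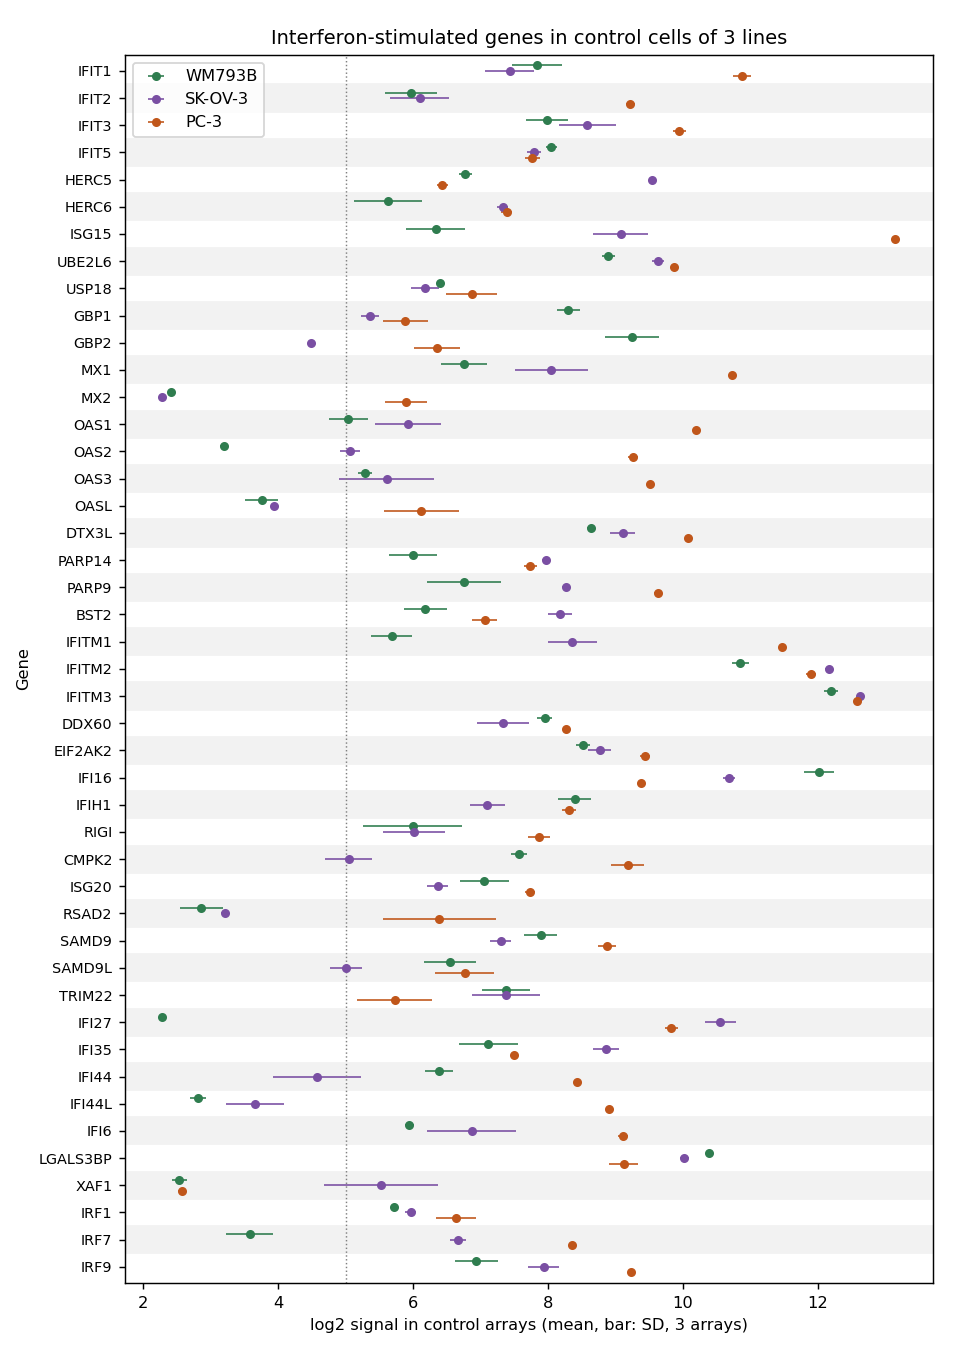
Log2 signals of the 45 genes in control cells of WM793B, SK-OV-3 and PC-3 (mean and SD, n = 3), with the noise level of 5 as a dotted line; levels can be compared between lines within a gene, not between genes. PC-3 cells have the highest mean for the OAS and IFI44 genes, ISG15 and IFITM1, and WM793B cells for GBP1, GBP2 and IFI16.

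Over the 45 genes, the median level was 7.69 under cycling, 6.92 under chronic hypoxia and 8.88 in control PC-3 cells, 7.80 under cycling, 8.96 under chronic hypoxia and 7.33 in control SK-OV-3 cells, and 6.40 under cycling, 5.91 under chronic hypoxia and 6.75 in control WM793B cells. At the noise level were 5, 10 and 1 of the 45 genes in the PC-3 groups taken in that order, 4, 3 and 5 in the SK-OV-3 groups and 12, 11 and 8 in the WM793B groups. The median level of SK-OV-3 cells was above that of PC-3 cells under chronic hypoxia and below it in control cells. On single arrays many of the 45 genes shifted together. PC-3 cycling replicate 1 was the highest of its 3 arrays in 37 of 45 genes, PC-3 chronic replicate 2 the lowest in 36 and PC-3 cycling replicate 2 in 34. SK-OV-3 replicate 2 was the lowest in 28 genes under cycling and 34 under chronic hypoxia and in 34 in control cells. WM793B replicate 3 was the lowest in all 3 conditions, in 23 genes under cycling and 25 under chronic hypoxia and in 26 in control cells. The median SD of a gene was 0.333 under cycling and 0.287 under chronic hypoxia, against 0.075 in control PC-3 cells. The cause of these shifts was not tested. The count of calls in PC-3 cells under chronic hypoxia was 34 without replicate 2 of the chronic group, against 36 with it.

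**Figure D5:**
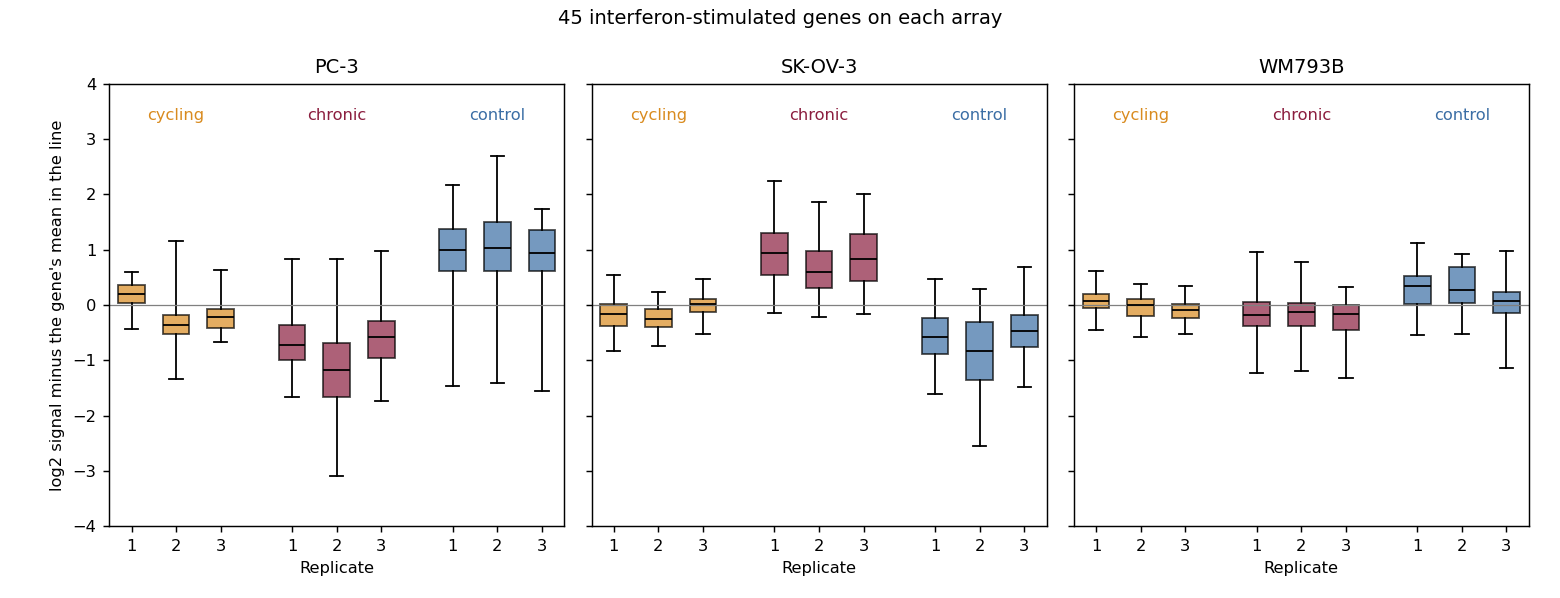
Log2 signal of the 45 genes on each array, less the mean of the gene over the 9 arrays of its cell line; boxes show the quartiles and the median, whiskers the range. The hypoxic boxes of PC-3 lie below the control ones, those of SK-OV-3 chronic hypoxia above control, and PC-3 chronic replicate 2 lies lowest in its line.

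Of the 45 genes, 25 lie in 10 groups of neighbours with gaps of at most 250 kb (GRCh38.p14), and some neighbours differed in what they did. The 4 IFIT genes on chromosome 10 all fell in PC-3 cells under chronic hypoxia, while in SK-OV-3 cells IFIT1, IFIT2 and IFIT3 rose and IFIT5 differed by 0.40 (not called). On chromosome 2, CMPK2 and RSAD2 lie side by side, and in SK-OV-3 cells CMPK2 rose by 1.40 while RSAD2 stayed at the noise level. On chromosome 21, MX1 rose by 2.60 in SK-OV-3 cells and MX2 stayed at the noise level. SAMD9 and SAMD9L, neighbours on chromosome 7, rose by 2.17 and 1.95 in SK-OV-3 cells and fell in PC-3 cells under chronic hypoxia, with -1.97 for SAMD9 and the bound given above for SAMD9L. Among the 25 genes with an ISRE match, 20 fell and 1 rose in PC-3 cells under chronic hypoxia and 18 rose in SK-OV-3 cells. Among the 11 with a window and no such match, 8 fell in PC-3 and 7 rose in SK-OV-3 cells. Over all 10021 genes 14.1% fell in PC-3 and 9.99% rose in SK-OV-3 cells under chronic hypoxia. Most genes of both groups were called, shares of all genes by motif are not given here, and nothing is read about the motif. Genes with more than 1 filtered probe set numbered 20, and in none of the 18 comparisons did 2 probe sets of a gene pass the thresholds in opposite directions. Their calls differed in 5 of the 20 for chronic hypoxia in SK-OV-3 and 8 for cycling hypoxia in PC-3 cells, against control. In SK-OV-3 cells the other probe sets of OAS3 (means of 4.04 under chronic hypoxia and 3.54 in control cells) and IFI44 (3.33 and 2.86) were at the noise level. Those of OAS1 (9.49 and 5.37) and OAS2 (6.01 and 3.97, 5.31 and 3.95) were higher under chronic hypoxia.

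The genes upstream of the set were read from lists that do not overlap it. Of 20 interferon genes listed, 18 had a probe set, and all of them were at the noise level on every array, with a highest group mean of 3.08 for IFNE. RNA of these 18 interferons thus did not exceed that cutoff in any group, control or hypoxic, at 72 h. IFNA6 and IFNL3 had no probe set and were not read, and earlier times were not sampled. Of 6 receptor genes tested, IFNAR1 fell in PC-3 cells under chronic hypoxia (log2 difference -1.47, adjusted p = 3.91e-05) and in WM793B cells (-1.73, adjusted p = 0.00011), and differed by 0.27 in SK-OV-3 cells. IFNGR2, a subunit of the interferon gamma receptor, rose in SK-OV-3 cells (1.04, adjusted p = 0.000247). Of 9 tested genes of JAK-STAT signalling, SOCS3, which inhibits receptor kinases, rose in PC-3 cells under chronic (1.36) and cycling hypoxia (1.87), JAK2 rose there under cycling hypoxia (1.25), and none was called in the other lines. Of 10 tested genes of nucleic acid sensing, STING1, the adaptor of the DNA sensor cGAS, rose in SK-OV-3 cells under chronic hypoxia (1.53) while TRIM25 fell there, MYD88 fell in PC-3 cells, and CGAS itself and the kinase gene IKBKE fell in WM793B cells, all under chronic hypoxia. These are 0 to 2 genes per list and comparison, beside the shares over all genes given above (such as 14.1% lower in PC-3 and 9.99% higher in SK-OV-3 cells under chronic hypoxia), and nothing is read from them about the lists.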

How the data were processed

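RNA of 27 cultures was hybridized to Affymetrix U133 Plus 2.0 arrays. The authors deposited log2 values for 54675 probe sets, made with GC-RMA, a method that subtracts a background predicted from each probe's bases before normalization and summary. Those values were used as deposited. Left out were 62 control probe sets. Of the others, 41091 carried 1 gene symbol, 1801 several and 11721 none in the platform annotation, and only the first were named. Sequences are from RefSeq (GRCh38.p14).

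Within each line, limma (version 3.58.1, R 4.3.3) was fitted to 9 arrays, and differences between responses or between lines were taken from 1 fit of 27 arrays. The p-values were adjusted by Benjamini-Hochberg over 19791 filtered probe sets, after the study's filter and 2-fold threshold, and the fit was tested on simulated data. P-values measure the spread between cultures labelled as biological replicas. Alternatives changed the filter, threshold, scaling, probe set, block and arrays. Genes with values are the 5 called changes of largest size in each chronic hypoxia comparison with control, the 3 largest in every other comparison, the transcription factors, and examples by role chosen after their values were seen. The genes, lists and motifs were chosen with earlier results of these data known.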

Additional observations from a re-analysis of the deposited data

Results flagged for a closer look

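The test of the difference between cell lines was passed by many of the genes. The response to chronic hypoxia differed between SK-OV-3 and PC-3 cells for 42 genes, with differences of the log2 differences of 6.19 for OAS2, 6.19 for IFIT1 and 5.78 for IFI44. Between WM793B and PC-3 cells it differed for 31 genes, with 3.31 for MX2 (at the noise level in all WM793B groups), 3.1 for IFIT1 and 3.14 for IFI44. Between WM793B and SK-OV-3 cells it differed for 32 genes, with -4.87 for OAS1, -4.52 for OAS3 and -4.34 for IFI6, all at the noise level in WM793B cells under chronic hypoxia. The response to cycling hypoxia differed between SK-OV-3 and PC-3 cells for 34 genes, with 3.4 for IFIT1, 3.12 for IFI44 and 2.98 for MX1. Between WM793B and PC-3 cells it differed for 19 genes, with 2.72 for RSAD2 (at the noise level in both WM793B groups and in PC-3 cells under cycling hypoxia), 2.28 for IFIT1 and -2.12 for ISG20. Between WM793B and SK-OV-3 cells it differed for 17 genes, with -2.19 for OAS1, -2.14 for OAS3 and -2.05 for IFITM1, all at the noise level in WM793B cells under cycling hypoxia. Where a group is at the noise level the size is fitted and not measured. All are limma tests with an adjusted p under 0.05 and at least 2-fold, positive where the first line named had the higher response. By the same rule, shares of all genes with a higher and a lower chronic response were 18.7% and 9.38% for SK-OV-3 against PC-3. They were 10.3% and 7.8% for WM793B against PC-3, and 9.37% and 15.5% for WM793B against SK-OV-3. For cycling hypoxia they were 9.46% and 6.08%, 3.43% and 4.58%, and 5.12% and 9.69%, in the same order.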

How the results depend on the processing

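Of 392 alternative values of 56 results for single genes, 380 kept direction and call, 12 lost the call and 0 changed direction. The call was lost for IFI35 in cycling against chronic PC-3 cells (1.82 without the variation filter, 1.73 after a further quantile normalization), IFIT3 in WM793B cells under cycling hypoxia (-1.04 without the filter), and, with 1 array left out, also for IFIT2 there, for OAS3 under cycling hypoxia in the SK-OV-3 line and for PARP9 in WM793B cells under chronic hypoxia. Without the threshold on the fold change, the counts of genes called were 19 for cycling against chronic hypoxia in PC-3 cells, 24 for cycling hypoxia against control and 35 for cycling against chronic hypoxia in the SK-OV-3 line, and 22 for chronic hypoxia against control, 10 for cycling hypoxia against control and 2 for cycling against chronic hypoxia in WM793B cells. The shares over all genes without that threshold are not given here, and nothing is read from these counts. For cycling hypoxia against control in WM793B cells, 1 gene was called without the variation filter and 1 with the mean of the probe sets of a gene. For cycling against chronic hypoxia in WM793B cells, 1 was called, in place of 0, with dim probe sets left out, with arrays centred on the median, with arrays quantile-normalized again, with the mean of the probe sets, with all 27 arrays in 1 fit, and with the replicate block.

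Leaving out 1 array at a time, the counts ranged over 6 to 13 for cycling against chronic hypoxia in PC-3 cells, 6 to 10 for cycling hypoxia against control in SK-OV-3 cells, 0 to 3 for cycling hypoxia against control in WM793B cells (0 without control replicate 1, 1 without control replicate 2 or cycling replicate 2) and 0 to 1 for cycling against chronic hypoxia in WM793B cells (1 without cycling replicate 2 or chronic replicate 3). The labels do not say that a replicate number marks a shared batch, and the arrays were not paired in the main fit. Arrays were counted as deviating together at a correlation over 0.1 across the filtered probe sets. Same-numbered pairs did so in 1 of 9 for PC-3, 1 of 9 for SK-OV-3 and 5 of 9 for WM793B cells. Pairs of different number did so in 0, 2 and 2 of 18. In WM793B cells same-numbered arrays thus deviated together more often, and whether they shared a batch was not tested. In these 45 genes replicate 2 of SK-OV-3 and replicate 3 of WM793B were most often the lowest in all 3 conditions. With the block, no other count moved by more than 1.5 times. Dim genes are limited by the noise level.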

Other observations

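A further list of interferon-induced genes outside the set, of which 29 of 43 were tested, was read in the same way. In PC-3 cells under chronic hypoxia 11 of the 29 fell, against 14.1% of all genes, and 2 rose, against 8.08%. In SK-OV-3 cells 9 rose, against 9.99%, and 2 fell, against 6.35%, so that the rises in PC-3 and the falls in SK-OV-3 cells are near the shares over all genes. SP110, a nuclear body protein, fell in PC-3 cells (-2.31, log2, adjusted p = 0.000141) and rose in SK-OV-3 cells (1.86, adjusted p = 1.74e-05). TRIM14 fell in PC-3 cells (-2.74) and WM793B cells (-1.41) and rose in SK-OV-3 cells (1.25), all under chronic hypoxia. TNFSF10, the death ligand TRAIL, rose by 3.14 under chronic and 2.25 under cycling hypoxia in SK-OV-3 cells. APOL1, which lyses trypanosomes, rose there by 3.26 under chronic hypoxia. Under cycling hypoxia 3 of the 29 rose in that line, against 6.4% of all genes, and 5 fell, against 3.41%, with a median of -0.13. LAMP3 and WARS1 fell in SK-OV-3 cells under both kinds of hypoxia. LAP3, an aminopeptidase, fell under chronic hypoxia in PC-3 cells (-2.05) and WM793B cells (-1.37), with 0.20 in SK-OV-3 cells, which was not called. RNF213, a large ubiquitin ligase, rose under chronic hypoxia in the PC-3 line (1.33) and the SK-OV-3 line (1.10). NT5C3A, a nucleotidase, was the 1 gene of the list that rose in WM793B cells, by 2.12 (adjusted p = 0.00011). These values come from limma within each line. The list was read beside the set and shares its arrays. In the fit of 27 arrays the response to chronic hypoxia was higher in SK-OV-3 than in PC-3 cells for 15 of the 29, against 18.7% of all genes, and lower for 3, against 9.38%. SP110, TRIM14, TNFSF10, APOL1 and LAP3 were among the 15.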
